A study of Rattus norvegicus with 6 samples.

Results

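Free leucine was compared with complete dairy protein in gastrocnemius muscle of rats, as the 2 arrays of the leucine diet against the 2 arrays of the dairy diet. These are 4 of the 6 arrays of the series, and all 14506 genes with a single name on the array were compared. The animals were male Sprague-Dawley rats, obese from their diet, that ate freely for 8 weeks from an age of 12 weeks and were 20 weeks old at the end. All diets were rich in fat and sucrose, held 4.6 kcal/g and took 10% of their energy from protein. The leucine group took 7.1% of its energy as casein and 2.9% as free leucine, and in the dairy group the whole 10% was complete dairy protein, given as skim milk powder. The other 2 arrays, from the casein control diet, entered neither the differences nor the main fit and are given as levels. They entered alternative fits of the spread and the choice of the probe cluster read for each gene. Each diet was fed to 4 rats by the design text. The labels do not say which rat an array stands for, and p-values therefore measure the spread between samples that may differ only technically.

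Leucine is a branched-chain amino acid that skeletal muscle takes up, uses for protein synthesis and breaks down in its mitochondria. It is known as a signal to mTORC1, the kinase complex that promotes translation, and its breakdown starts with the transaminase Bcat2 and the branched-chain ketoacid dehydrogenase. Milk protein holds whey proteins beside casein, and skim milk powder also brings lactose and minerals, so the diets differed in more than free leucine. Gastrocnemius is a mixed muscle of mostly fast fibres, with fibroblasts, macrophages, vessels, nerve and fat between them, and RNA of the whole piece was measured.

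The values were log2 signals as deposited, and a difference of 1 is a doubling of signal. Array medians over all clusters lay between 3.46 and 3.56. Fast-fibre genes had a median signal of 12.4 on the leucine and dairy arrays, above 99.9% of genes on each. Liver is named in the protocols' steps for storing tissue and extracting RNA. Of the hepatocyte markers, Alb (albumin) read 8.11 and 5.54 on the dairy arrays and 4.81 and 9.80 on the leucine arrays. Casein array 2 stood apart, with 603 genes over 2-fold between it and casein array 1. Between the 2 dairy arrays 163 genes differed over 2-fold, 100 of them higher on array 1, and between the 2 leucine arrays 112 did, 89 of them higher on array 2. Both dairy arrays carried the very same value in 16.9% of genes and both leucine arrays in 12.2%, so a small spread in a single gene, and the small p that follows, can come from equal values.

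None of the 14506 genes passed an adjusted p of 0.05 (limma with Benjamini-Hochberg adjustment, 0% of genes), and the lowest adjusted p was 0.512. All differences below are therefore sizes with their errors and not calls. Before adjustment 1095 genes had a limma p under 0.05, against 725.3 that such a threshold gives by chance. Of all genes, 447 were higher with leucine at that threshold (3.08%) and 648 were lower (4.47%). In the same fit these shares were 3.83% and 6.65% among the 7253 genes at or above the median level. At any p, 7023 genes were higher and 7029 lower. With the spread taken from all 6 arrays, casein included, the count of 1095 fell to 827, closer to the 725.3. Higher genes made up 40.8% of the 1095, and 60.2% after each array was centred on its own median, which moved the median gene by 0.066. Both leucine arrays lay above both dairy arrays in 13.4% of genes and below both in 14.9%. Among the 7253 genes at or above the median level, to which most members of many lists belong, these shares were 14.4% and 20.6%. In what follows such genes are called apart. Over 2-fold and apart at once were 92 genes, 17 higher with leucine (0.117%) and 75 lower (0.517%), and among the brighter genes 0.165% and 0.993%. This count was 180 without leucine replicate 1 and 225 without dairy replicate 2, where being apart is easier to meet. The standard deviation over genes was 0.25 for the difference between the diets, 0.29 between the dairy arrays and 0.28 between the leucine arrays, where the first is a difference of means and the others of single arrays.

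**Figure D1:**
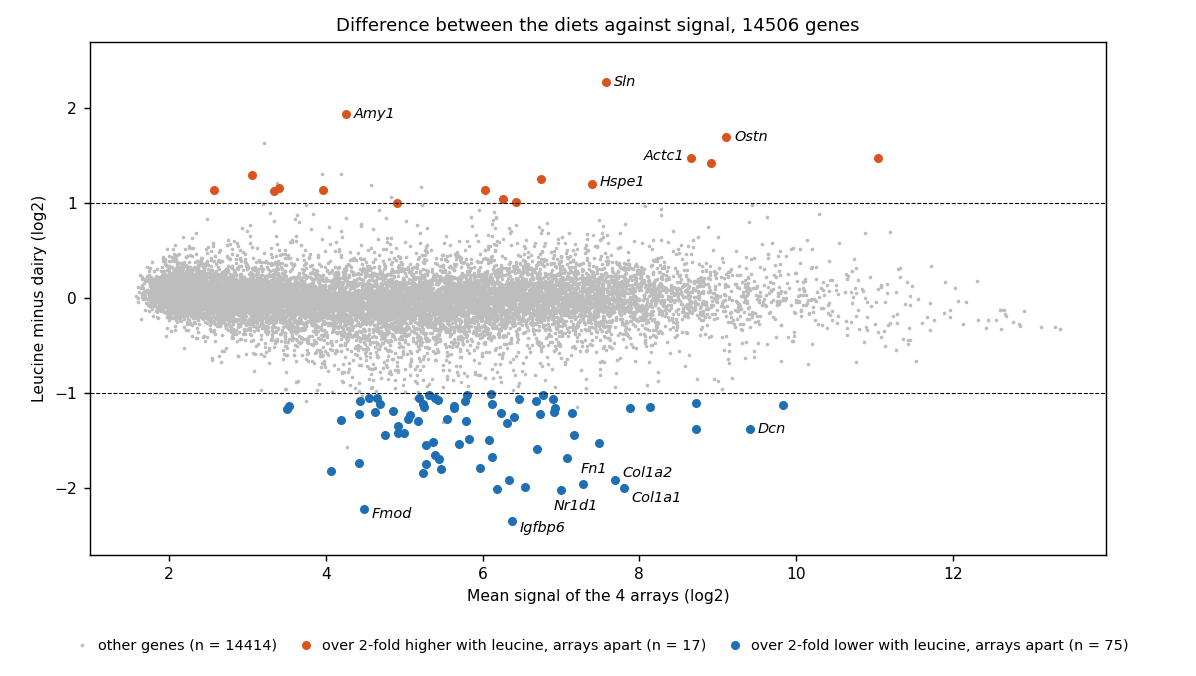
Difference between the diets (leucine minus dairy, log2, mean of 2 arrays against mean of 2) plotted against the mean signal of the 4 arrays (log2), with 1 point per gene and dashed lines at a 2-fold difference. The 75 blue points (over 2-fold lower with leucine, arrays apart) outnumber the 17 orange points (over 2-fold higher, arrays apart), and Col1a1, Col1a2, Fn1, Igfbp6 and Nr1d1 lie near the lower edge.

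The genes of the extracellular matrix and of the fibroblasts that make it were lower on the leucine arrays. In 5 lists of matrix and fibroblast genes, 56 of 61 measured genes were lower with leucine, 45 were lower and apart, and 14 were over 2-fold lower and apart. Their median difference was −0.52, against 0.00 for all genes. Since this is bulk RNA, fewer fibroblasts and less matrix RNA per fibroblast cannot be told apart, here or for any other cell type below.

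Among the structural collagens, Col1a1, which encodes the main chain of type I collagen, had signals of 9.10 and 8.50 with dairy and of 6.69 and 6.91 with leucine. Both leucine arrays lay well below both dairy arrays, a difference of −2.00 (SE 0.27, 4.00-fold, unadjusted limma p 0.00537). Its partner chain Col1a2 read 8.96 and 8.33 with dairy and 6.86 and 6.59 with leucine (−1.92, SE 0.29). Col3a1, the type III collagen of reticular fibres, read 8.12 and 7.67 against 6.49 and 6.41 (−1.44, SE 0.19). On the casein arrays the same 3 genes read 8.97 and 8.51, 9.03 and 8.22, and 7.20 and 7.11, all above the leucine arrays. Col5a1, a minor chain that sets fibril width, had a smaller and tighter difference, with 4.87 and 4.91 against 4.42 and 4.33 (−0.52, SE 0.05). In all, 10 of 11 collagens were lower with leucine (9 apart, 5 with an unadjusted p under 0.05), with a median of −0.58. The exception, Col8a1 of vessel walls, read 3.29 and 3.67 against 3.71 and 3.43, and its arrays overlapped.

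The glycoproteins that tie cells to this matrix followed the collagens in direction. Fn1, fibronectin, read 8.66 and 7.85 with dairy, 6.10 and 6.49 with leucine and 7.73 and 8.03 with casein (leucine minus dairy −1.96, SE 0.37). Sparc, a collagen-binding protein, read 9.39 and 9.68 with dairy and 8.69 and 8.48 with leucine (−0.95, SE 0.15). Fbln2, the elastic-fibre protein fibulin, differed by −0.93 (SE 0.15), and Ccn5, a small matricellular protein, by −0.34 (SE 0.05). All 14 measured genes of this kind were lower with leucine, 11 of them apart, with a median of −0.64. Thbs1, thrombospondin, was lower with leucine (4.62 and 4.20) than with dairy (5.07 and 5.32), while its casein arrays read 6.10 and 6.19. Its order of diets, casein above dairy above leucine, thus differs from that of Col3a1.

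Matrix turnover genes were lower too. Mmp2, the gelatinase that cuts basement membrane collagen, read 7.52 and 7.17 against 6.21 and 6.03 (−1.22, SE 0.16), and its inhibitor Timp2 read 7.70 and 7.30 against 6.46 and 6.23 (−1.16, SE 0.19). Loxl1, which crosslinks elastin, differed by −0.86 (SE 0.11). Of the 18 proteases, inhibitors and crosslinking enzymes 14 were lower, 9 of them apart, and the median was −0.40. The collagen-modifying hydroxylases P4ha1 and Plod2 were the members apart in the other direction, by 0.17 (SE 0.07) and 0.41 (SE 0.24). All 5 measured laminins, nidogens and agrin of the basement membrane were lower and apart (median −0.41). Lama5, a laminin chain, read 4.68 and 4.67 against 4.25 and 4.25. Nid2 differed by −0.27 (SE 0.07) and Agrn, which gathers acetylcholine receptors at the nerve ending, by −0.41 (SE 0.12).

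Markers of the fibroblasts themselves were lower as well. Dcn, decorin, the leading proteoglycan of muscle connective tissue, read 10.40 and 9.79 with dairy and 8.87 and 8.57 with leucine (−1.38, SE 0.28). Pdgfra, the receptor that marks fibro-adipogenic progenitors, read 6.07 and 5.64 against 5.14 and 5.27 (−0.65, SE 0.19), and Mfap5 differed by −1.27 (SE 0.30). All 13 were lower, 11 apart, with a median of −0.66. Dairy array 1 carried more of them than dairy array 2, with list medians of 0.54 and 0.11 relative to each gene's mean over the 4 arrays. Leucine arrays stood at −0.34 and −0.26 on the same scale, and the list median without dairy replicate 1 was −0.57. Fmod, fibromodulin, chosen after its values were seen, differed mainly between the dairy arrays, with 4.27 and 6.91 on the dairy arrays against 3.24 and 3.50 (−2.22, SE 1.10).

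**Figure D2:**
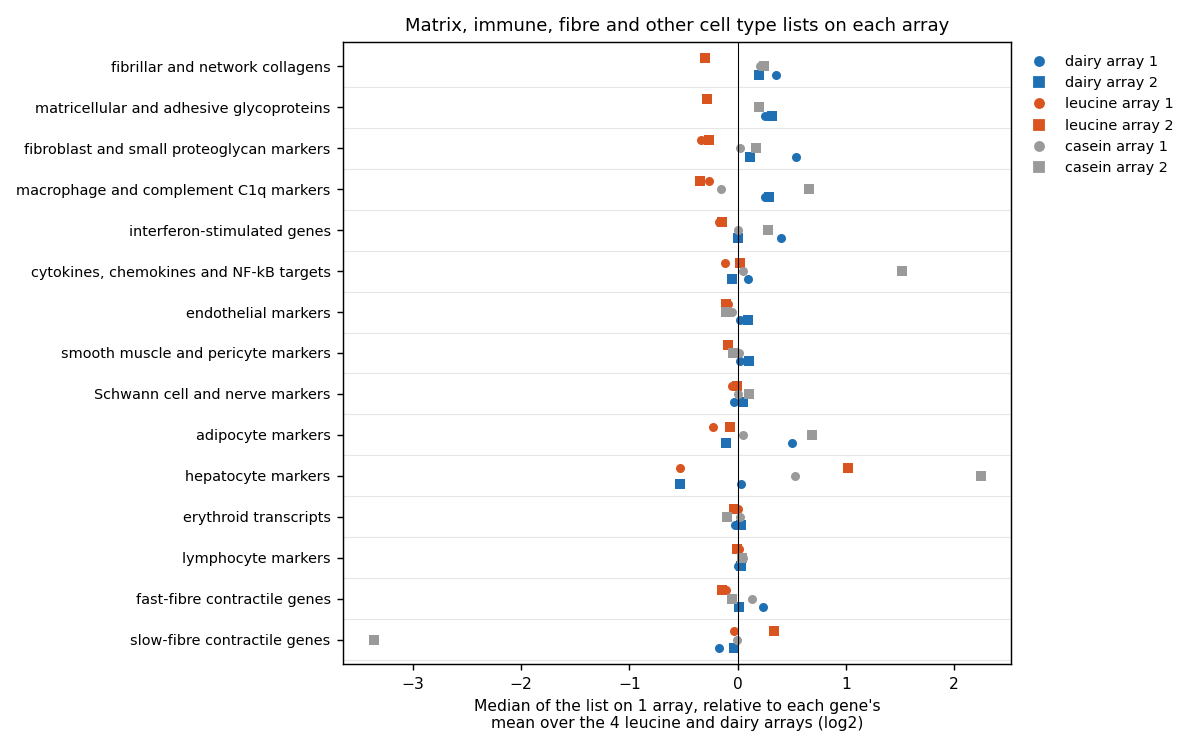
Median of each list on each of the 6 arrays, after subtracting each gene's mean over the 4 leucine and dairy arrays (log2, circles for array 1 and squares for array 2 of a diet). The leucine arrays (orange) lie below both dairy arrays (blue) for the collagen, matricellular, fibroblast and macrophage lists, while leucine array 2 and casein array 2 (grey) lie high for hepatocyte markers and casein array 2 lies at −3.36 for slow-fibre genes.

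Macrophage markers were lower with leucine in all 18 measured genes, 14 of them apart and 11 with an unadjusted p under 0.05, with a median of −0.62. Cd14, the co-receptor for bacterial lipopolysaccharide, read 5.31 and 5.31 with dairy and 4.48 and 4.42 with leucine (−0.86, SE 0.04, unadjusted limma p 0.000334). Cd68, a lysosomal protein of macrophages, read 4.25 and 4.25 against 3.65 and 3.63 (−0.60, SE 0.03). In both genes the dairy arrays carried the very same value, which makes the error small. C1qb, a chain of the complement starter C1q that tissue macrophages make, read 5.40 and 5.09 against 4.16 and 4.10 (−1.12, SE 0.14), and Csf1r, the receptor macrophages need to survive, 6.33 and 6.01 against 5.36 and 5.21 (−0.88, SE 0.15). Tyrobp, a signalling adaptor of myeloid cells, differed by −0.56 (SE 0.06), also with the very same value on both dairy arrays. Ptprc, the CD45 antigen of white cells, overlapped between the diets, with 4.08 and 3.75 against 3.67 and 4.09. Casein arrays differed widely from each other in these markers, with Cd14 at 4.64 and 7.12.

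Interferon genes were mostly lower with leucine, while class II genes of antigen presentation were mixed. Cd74, the chain that guides class II molecules, read 7.79 and 7.70 with dairy and 6.99 and 6.80 with leucine (−0.85, SE 0.09). RT1-Da, a class II chain, differed by −0.39 (SE 0.14), but RT1-Bb by 0.13 (SE 0.17), with overlapping arrays. Of 8 class II genes 2 were lower and apart and 1 was higher and apart, with a median of −0.09 that was 0.00 without leucine replicate 2. Of the interferon-stimulated genes 28 of 32 were lower, 20 of them apart, with a median of −0.34. Isg15, a ubiquitin-like protein that interferon switches on, read 4.25 and 3.87 against 3.17 and 3.18 (−0.88, SE 0.16). The transcription factor Irf1 read 4.88 and 4.76 against 4.24 and 4.18 (−0.61, SE 0.06), and Lgals3bp, a secreted lectin-binding protein, differed by −0.97 (SE 0.14). Usp18, which removes Isg15 from its targets, read 2.77 and 2.36 against 2.96 and 2.63. The interferon median rested in part on 1 array, being −0.18 without dairy replicate 1 and −0.60 without dairy replicate 2.

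Cytokines and their targets gave a mixed picture. Socs3, the feedback inhibitor of cytokine receptors, read 4.57 and 4.59 with dairy against 3.64 and 3.53 with leucine (−0.99, SE 0.06), whereas its casein arrays read 4.20 and 7.71. Il6 read 2.12 and 2.16 with dairy and 2.40 and 2.40 with leucine, a difference of 0.26 (SE 0.04) at the bottom of the signal range. The list had 4 of 26 genes apart in each direction, where all genes gave 13.4% higher and apart and 14.9% lower and apart. Of the 26, 20 were lower, with a median of −0.11. That median was −0.042 without leucine replicate 1 and −0.17 without dairy replicate 2.

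Other cell types of the muscle had medians closer to 0 over all measured members. Endothelial markers were lower in 12 of 14 genes, 6 of them apart, with a median of −0.23. Emcn, a surface sialoprotein of veins and capillaries, read 6.08 and 6.09 against 5.73 and 5.75 (−0.34, SE 0.04), and the angiopoietin receptor Tek differed by −0.43 (SE 0.09). The defining endothelial genes Pecam1, Cdh5 and Kdr overlapped between the diets, and Flt1, a receptor for vascular endothelial growth factor, was apart in the other direction (6.77 and 7.14 against 7.46 and 7.24). Smooth muscle and pericyte genes had a median of −0.15 (−0.073 without dairy replicate 2 and −0.087 with arrays centred), with Acta2, smooth muscle actin, at 9.37 and 9.40 against 9.01 and 8.79 (−0.48, SE 0.10). In the nerve list 7 of 10 genes were lower, and Pmp22, a myelin protein that fibroblasts also make, was the only 1 apart (−1.25, SE 0.14). The myelin gene Mbp, at a low signal (3.14 and 3.14 against 3.06 and 3.14), differed by −0.04 (SE 0.05). Lymphocyte and erythroid lists had medians of −0.02 and 0.02. Many members of the nerve and lymphocyte lists had low signals. Among the brighter genes alone the median was −0.62 for nerve (3 genes), −0.27 for smooth muscle and pericytes, −0.41 for lymphocytes (1 gene) and −0.06 for erythroid transcripts.

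Fat and liver transcripts varied mostly between arrays of the same diet. Adipoq, the fat cell hormone adiponectin, read 6.72 on dairy array 1, 4.48 on dairy array 2 and 4.28 and 4.22 on the leucine arrays. The adipocyte list, with 9 of 11 genes lower and 3 apart, had a median of −0.32. It was −0.66 without dairy replicate 2 and −0.19 without leucine replicate 1. On the 4 arrays its medians relative to gene means were 0.50 and −0.10 with dairy and −0.23 and −0.07 with leucine. Hepatocyte markers were higher with leucine in 22 of 24 genes, but only 5 were apart, since leucine array 1 stood at −0.53 and leucine array 2 at 1.02. Without leucine replicate 2 their median of 0.41 turned to −0.23, and without leucine replicate 1 it was 1.19. Fgg, a fibrinogen chain, read 3.95 and 2.64 with dairy and 2.84 and 6.37 with leucine. The part of fat, liver, macrophage and fibroblast RNA in the differences of other genes was not tested.

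Among the fibres themselves, fast-fibre genes were slightly lower with leucine and several slow-fibre genes were higher. Myoz1, which anchors calcineurin at the Z-disc of fast fibres, read 11.69 and 11.66 with dairy and 11.22 and 11.26 with leucine (−0.43, SE 0.04). Myl1, a fast myosin light chain, differed by −0.17 (SE 0.04) and Tnnt3, fast troponin T, by −0.18 (SE 0.06), but after quantile normalization by 0.039 and 0.017. In all, 13 of 14 fast-fibre genes were lower, 8 of them apart, with a median of −0.26. It shrank to −0.14 without dairy replicate 1 and to −0.05 after quantile normalization. Myh2, the myosin of fast oxidative fibres, was the exception and was apart in the other direction (11.70 and 11.40 against 11.89 and 11.88). The myosins Myh4, of the fastest fibres, and Myh7, of slow fibres, overlapped between the diets, with differences of −0.14 (SE 0.16) and 0.09 (SE 0.11).

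Slow-fibre genes were higher in 11 of 15 cases, 5 of them apart, with a median of 0.17. Tnnc1, slow troponin C, read 9.76 and 9.60 with dairy and 10.11 and 10.28 with leucine (0.51, SE 0.10). Atp2a2, the calcium pump of slow fibres, read 10.20 and 10.31 against 11.00 and 10.66 (0.58, SE 0.15), and Myoz2, the slow partner of Myoz1, 8.84 and 9.05 against 9.53 and 10.31 (0.98, SE 0.34). Myh7b went the other way at −0.24 (SE 0.04). Leucine array 2 was the higher of the pair, and without leucine replicate 1 the list median was 0.55. Casein array 2 was low in slow-fibre genes, with Tnnc1 at 4.46 beside 10.53 on casein array 1.

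Genes of calcium release and of the nerve-muscle contact were mostly lower. Of 16 calcium-handling genes 12 were lower, 11 of them apart (median −0.22). Hrc, which buffers calcium inside its store, read 9.96 and 9.94 against 9.70 and 9.63 (−0.28, SE 0.04), Cacnb1, a subunit of the voltage sensor, differed by −0.66 (SE 0.19), and the fast calcium pump Atp2a1 by −0.27 (SE 0.09). Mcu, the calcium channel of mitochondria, was higher by 0.16 (SE 0.07). Sln, sarcolipin, the small peptide that slows the calcium pump, had the greatest difference in the list and was chosen after its values were seen. Its signals of 5.21 and 7.66 with dairy and 7.70 and 9.73 with leucine were apart by a hair, so the difference of 2.28 carried an SE of 1.31. At the neuromuscular junction 9 of 12 genes were lower, 6 of them apart, with a median of −0.25 (−0.40 without dairy replicate 1). Ache, acetylcholinesterase, read 7.25 and 7.27 with dairy, 6.71 and 6.66 with leucine and 6.71 and 6.71 with casein (leucine minus dairy −0.58, SE 0.04), so here the dairy arrays were the ones that stood apart. The junction factor Etv5 differed by −0.68 (SE 0.16) and the neuregulin receptor Erbb3 by −0.30 (SE 0.04).

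Genes that burn fat were higher on the leucine arrays. Of 21 enzymes and carriers of mitochondrial fatty acid beta-oxidation 20 were higher, 16 of them apart and 7 with an unadjusted p under 0.05, and none was lower and apart. Their median was 0.37. Hadhb, the thiolase subunit of the trifunctional protein, read 9.71 and 9.95 with dairy and 10.49 and 10.40 with leucine (0.61, SE 0.11). Etfb, which passes electrons from the dehydrogenases to the respiratory chain, read 7.93 and 7.89 against 8.21 and 8.22 (0.31, SE 0.04). Echs1, the hydratase of the cycle, read 8.47 and 8.48 against 8.70 and 8.75 (0.25, SE 0.04). Cpt1b, the muscle form of the carnitine transferase that gates fatty acid entry, did not share this, with 9.25 and 9.34 against 9.34 and 9.33 (0.04, SE 0.05), and Cpt1a, the liver form, differed by −0.09 (SE 0.09). The median ran from 0.27 without dairy replicate 1 to 0.59 without dairy replicate 2, since dairy array 1 was the lowest of the 4 at −0.33 relative to gene means, beside −0.08, 0.28 and 0.13. On casein array 1 the same list stood at −0.09, and on casein array 2 at −0.95.

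Fatty acid uptake and PPAR target genes were higher in 14 of 18 cases, 10 of them apart, with a median of 0.25 that was 0.11 without dairy replicate 1 and 0.42 without dairy replicate 2. Lpl, the lipase that frees fatty acids from circulating triglyceride, read 9.07 and 9.34 with dairy and 9.76 and 10.36 with leucine (0.85, SE 0.28). Pdk4, the kinase that shuts pyruvate dehydrogenase when fat is burnt, read 10.44 and 11.26 against 11.69 and 11.40 (0.69, SE 0.36), and Ppara, the receptor that drives these genes, 5.26 and 5.53 against 6.26 and 5.74 (0.60, SE 0.25). Ucp3, the muscle uncoupling protein, read 7.88 and 8.98 against 9.15 and 9.0 (0.65, SE 0.46). In Pdk4 and Ucp3 dairy array 2 lay close to the leucine arrays and dairy array 1 lay below, so the spread within the dairy diet was as large as the difference. Ucp2, the form of immune cells and other tissues, was lower and apart (−0.30, SE 0.16). None of the 18 had an unadjusted limma p under 0.05.

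To show what lies upstream of such a gene, the RefSeq promoter of Echs1 is given below (build GRCr8, minus strand, chr1:204333507-204333756, the 250 bases before the start, 5′ to 3′), with the nuclear receptor half-site AGGTCA in capitals.
Echs1: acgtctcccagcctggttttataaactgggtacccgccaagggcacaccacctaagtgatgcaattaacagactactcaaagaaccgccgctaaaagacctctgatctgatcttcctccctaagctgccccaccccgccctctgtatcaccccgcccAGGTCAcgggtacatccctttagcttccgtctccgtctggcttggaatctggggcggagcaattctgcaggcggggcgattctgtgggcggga
This half-site, searched on both strands from 250 bases before to 50 after the start, was in 5 of 17 beta-oxidation promoters (29.4%) and in 3 of 15 uptake and PPAR target promoters (20%). It was in 13.3% of the 11954 promoters of genes tested and in 15.7% of all 27457 promoters. A match of so few letters describes the sequence and does not show that a factor binds there.

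Lipid synthesis genes had medians near 0. Gpam, which starts triglyceride synthesis, read 7.80 and 7.90 against 8.52 and 8.28 (0.55, SE 0.11) and Dgat1, which completes it, differed by 0.40 (SE 0.18). Scd, the desaturase, varied most within the dairy diet (6.58 and 3.70) and overlapped with the leucine arrays (4.22 and 4.60). The list of 18 had a median of 0.05. Cholesterol synthesis had a median of −0.11 with 8 of 12 genes lower, of −0.044 without leucine replicate 1 and of −0.017 among the brighter genes alone. Fdps, farnesyl diphosphate synthase, read 7.65 and 7.16 against 6.67 and 6.74 (−0.69, SE 0.21), and Fdft1, the next enzyme, differed by 0.21 (SE 0.11).

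**Figure D3:**
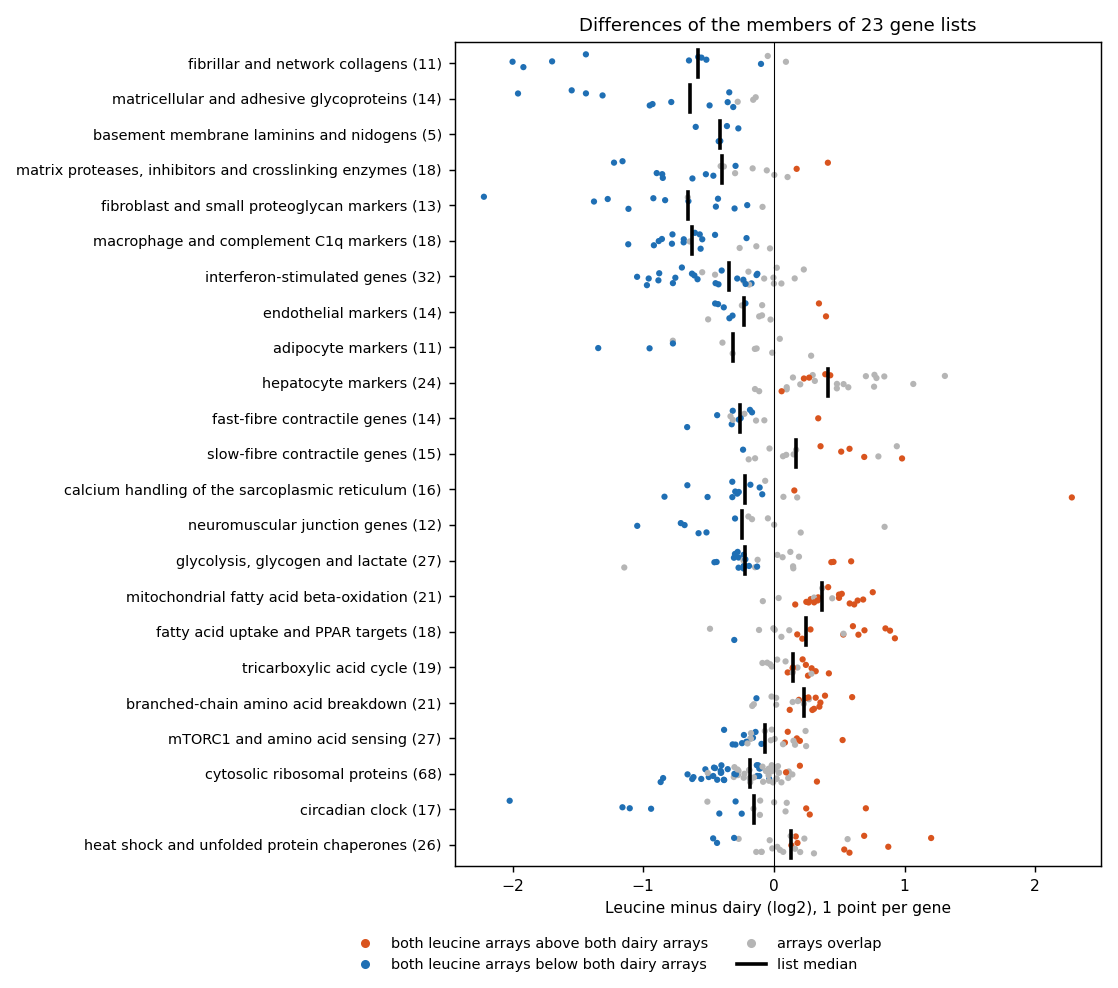
Difference between the diets (leucine minus dairy, log2) for each measured member of 23 lists, with the number of members in brackets and the list median as a black bar. Orange points are genes whose leucine arrays both lie above the dairy arrays, blue points those whose leucine arrays both lie below, and grey points overlap. Matrix, fibroblast and macrophage lists lie mostly left of 0 and beta-oxidation mostly right of it.

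Other mitochondrial lists had positive medians nearer to 0. The tricarboxylic acid cycle had 15 of 19 genes higher, 10 of them apart, with a median of 0.14 (0.08 without dairy replicate 1). Dld, the dehydrogenase shared by several mitochondrial complexes, read 9.21 and 9.19 against 9.54 and 9.49 (0.32, SE 0.04), and the succinyl-CoA ligase subunits Sucla2 and Suclg2 differed by 0.29 (SE 0.07) and 0.14 (SE 0.04). Cs, citrate synthase, often used as a measure of mitochondrial content, overlapped between the diets (−0.09, SE 0.14). Respiratory complex I had a median of 0.05 and complexes II to V of 0.03, close to 0. Single subunits differed in both directions, from Cox7c at 0.38 (SE 0.08) and Ndufc2 at 0.43 (SE 0.13) to Atp5f1e at −0.48 (SE 0.12). Tfb2m, a factor for transcription of mitochondrial DNA, read 7.13 and 7.25 against 7.80 and 7.65 (0.54, SE 0.09), while the coactivator Ppargc1a overlapped (6.12 and 6.51 against 6.92 and 6.26). Mitochondrial ribosomal proteins had a median of 0.05, with Mrps14 at 0.46 (SE 0.06) and Mrpl15 at −0.14 (SE 0.04).

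Glycolytic genes were lower in 18 of 27 cases, 14 of them apart and 8 with an unadjusted p under 0.05, with a median of −0.22. Gapdh read 13.44 and 13.47 with dairy and 13.12 and 13.17 with leucine (−0.31, SE 0.04). All 16 clusters assigned to Gapdh gave differences between −0.35 and −0.23, but they may read the same RNA and are not independent readings. Aldoa, the muscle aldolase, read 13.32 and 13.24 against 12.97 and 12.99 (−0.30, SE 0.05), and Pfkl, a phosphofructokinase, differed by −0.27 (SE 0.04). The creatine kinase Ckm, of the creatine list, read 13.06 and 12.95 against 12.70 and 12.72 (−0.29, SE 0.05). That list had a median of −0.10, and its member Slc6a8 was apart in the other direction (0.19, SE 0.05). Of the 3 members of the glycolytic list that were higher and apart, Ldhb and Slc16a1 had the smallest p. Ldhb, the lactate dehydrogenase form of oxidative tissue, read 8.09 and 8.05 with dairy and 8.57 and 8.75 with leucine (0.59, SE 0.08), and Slc16a1, a lactate transporter, 7.37 and 7.43 against 7.84 and 7.88 (0.46, SE 0.04). Many glycolytic genes sit at the top of the signal range, where quantile normalization brought their median to −0.01. Without dairy replicate 1 it was −0.11.

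Enzymes that break down leucine and its relatives were higher in 17 of 21 cases, 11 of them apart, with a median of 0.23 (0.14 without dairy replicate 1). Bcat2 and several genes of the ketoacid dehydrogenase overlapped between the diets, while its shared subunit Dld was apart. Bcat2 read 6.93 and 6.70 with dairy, 6.90 and 7.19 with leucine and 7.87 and 7.03 with casein. Bckdha, a subunit of the branched-chain ketoacid dehydrogenase, differed by −0.02 (SE 0.11) and Bckdk, the kinase that inhibits it, by −0.15 (SE 0.28), each with overlapping arrays. Dld, which serves this and other dehydrogenase complexes of the mitochondrion, had the smallest p of the list, with 9.21 and 9.19 against 9.54 and 9.49 (0.32, SE 0.04). Among enzymes further down some were apart and others overlapped. Acadsb, which dehydrogenates the isoleucine product, read 7.77 and 7.49 against 8.25 and 8.21 (0.60, SE 0.12). Hibch, of the valine branch, read 6.25 and 6.25 against 6.69 and 6.52 (0.36, SE 0.08). Mccc2, a subunit of the carboxylase of the leucine branch, was lower by a small amount (−0.13, SE 0.05).

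Genes of amino acid sensing by mTORC1 showed no common direction, with 11 of 27 higher, 16 lower and a median of −0.07. Slc38a9, the lysosomal arginine sensor, read 4.62 and 4.64 with dairy, 5.13 and 5.19 with leucine and 4.38 and 4.30 with casein (leucine minus dairy 0.53, SE 0.04, unadjusted limma p 0.00122). Its leucine arrays were thus the highest of the 6. Tfeb, the lysosomal transcription factor that mTORC1 holds in the cytosol, read 6.59 and 6.66 against 6.22 and 6.27 (−0.38, SE 0.05). Castor2, a partner of the cytosolic arginine sensor Castor1, differed by −0.29 (SE 0.04) and the lysosomal scaffold subunit Lamtor4 by −0.23 (SE 0.05). The kinase gene Mtor itself read 7.36 and 7.18 against 7.18 and 7.22, and the leucine-sensor relative Sesn1 6.96 and 6.75 against 7.04 and 6.81, both overlapping.

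Downstream of mTORC1, Eif4ebp1, the translation repressor that the complex switches off, read 7.54 and 7.63 with dairy, 6.99 and 7.17 with leucine and 7.58 and 8.09 with casein (leucine minus dairy −0.51, SE 0.09). Rps6kb1, the S6 kinase, differed by 0.30 (SE 0.09), and Eef1a1, an elongation factor, by −0.48 (SE 0.15). The list median was −0.04 and turned to 0.02 when arrays were centred. Ribosomal proteins of the cytosol leaned lower, with 54 of 68 lower, 29 of them apart, and a median of −0.18 (−0.11 without dairy replicate 1). Rps26 read 9.89 and 9.65 against 9.13 and 9.17 (−0.62, SE 0.11), Rps25 differed by −0.63 (SE 0.13) and Rpsa by −0.56 (SE 0.12). Rpl38 differed by 0.20 (SE 0.06), and its 4 clusters gave differences between 0.01 and 0.20. Such genes have many near-identical copies in the genome, so their probes may read more than 1 of them.

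Amino acid transporters and the ATF4 response to amino acid shortage lay near 0, with medians of 0.10 and 0.02. Both turned to −0.05 without dairy replicate 1, and the first was −0.0013 without leucine replicate 1. Slc7a5, the carrier that brings leucine into cells, read 3.01 and 2.81 with dairy and 3.20 and 3.12 with leucine (0.25, SE 0.09) at a low signal. Slc1a4, a carrier of small neutral amino acids, was lower (−0.32, SE 0.05). Asns, asparagine synthetase, the textbook target of ATF4, overlapped between the diets (−0.11, SE 0.10). Nupr1, a stress-response gene on the same list, read 5.77 and 6.17 against 5.11 and 4.95 (−0.93, SE 0.18). The transfer RNA synthetases had a median of 0.04, from Yars2 at 0.60 (SE 0.24) and Gars1 at 0.30 (SE 0.09) to Kars1 at −0.19 (SE 0.08). Insulin signalling had a median of −0.05. The glucose transporter Slc2a4 (−0.06, SE 0.09) and the receptor substrate Irs1 (−0.16, SE 0.41) overlapped, and Pdpk1, the kinase above Akt, read 7.37 and 7.39 against 7.88 and 7.66 (0.39, SE 0.10).

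Protein breakdown genes showed no shift as lists. Medians were −0.03 for atrophy ligases and FoxO factors, −0.03 for proteasome subunits and −0.04 for autophagy and lysosome genes, and all 3 turned positive when arrays were centred. Fbxo32, the atrophy ligase atrogin, read 9.15 and 9.35 with dairy and 9.74 and 9.61 with leucine (0.42, SE 0.11). Its partner Trim63 overlapped (9.13 and 8.98 against 9.19 and 8.67). Atg13, part of the complex that starts autophagy, read 6.37 and 6.37 against 6.73 and 6.73 (0.36, SE 0.03), and the lysosomal protease Ctsl differed by −0.34 (SE 0.11). Mstn, myostatin, the secreted brake on muscle growth, read 7.38 and 6.77 with dairy, 6.55 and 5.97 with leucine and 7.32 and 8.08 with casein (leucine minus dairy −0.81, SE 0.35). It was apart, with an unadjusted limma p of 0.105. Fstl1, a secreted glycoprotein of the follistatin family, read 6.42 and 6.17 against 5.71 and 5.32 (−0.78, SE 0.19). The myostatin and activin list had 23 of 31 genes lower and 5 lower and apart, where 14.9% of all genes were lower and apart. Its median was −0.08. That median was 0.005 without leucine replicate 2 and −0.014 when arrays were centred.

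Output genes of the circadian clock gave some of the greatest differences. Nr1d1, the clock repressor REV-ERB alpha, read 8.14 and 7.88 with dairy, 5.86 and 6.11 with leucine and 7.46 and 6.81 with casein. The leucine arrays lay below all others, a difference from dairy of −2.02 (SE 0.15, 4.06-fold, unadjusted limma p 0.00107). Dbp, a transcription factor of clock output, read 8.47 and 8.45 against 7.62 and 6.98 (−1.16, SE 0.27), and its relative Tef 7.81 and 7.81 against 7.47 and 7.32 (−0.42, SE 0.07). Nr1d2, the second REV-ERB, differed by −0.25 (SE 0.04). Nfil3, which binds the same sites as Dbp and Tef but represses, went the other way, with 5.76 and 6.26 against 6.48 and 6.94 (0.70, SE 0.28). Bhlhe40 and Bhlhe41, repressors that compete for E-boxes and chosen here for their promoters after their values were seen, differed by −1.10 (SE 0.20) and −0.94 (SE 0.41). Clock and Bmal1, the activators at the core, overlapped between the diets. Several clock genes differed over 2-fold between the casein arrays, with Dbp at 8.75 and 6.49, Nfil3 at 5.49 and 7.87 and Bmal1 at 3.37 and 5.67. Others were closer, with Tef at 7.86 and 7.62. In all 11 of 17 clock genes were lower, 7 of them apart and 6 with an unadjusted p under 0.05, with a median of −0.16. It was −0.25 without leucine replicate 1 and −0.09 when arrays were centred. The sources used here do not give the hour at which tissue was taken.

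The core activators are known to act through the E-box CACGTG. RefSeq promoters of the 3 clock genes that carry it in the window searched are given with the E-box in capitals (build GRCr8, 250 bases before the start, 5′ to 3′). Bhlhe40 lies on the plus strand at chr4:143174200-143174449, Bhlhe41 on the minus strand at chr4:180569356-180569605 and Tef on the plus strand at chr7:115206577-115206826.
Bhlhe40: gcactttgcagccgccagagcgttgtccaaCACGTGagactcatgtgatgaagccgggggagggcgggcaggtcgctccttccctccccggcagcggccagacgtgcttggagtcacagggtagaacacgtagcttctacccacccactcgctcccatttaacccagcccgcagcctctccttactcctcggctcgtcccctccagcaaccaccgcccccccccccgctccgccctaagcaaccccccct
Bhlhe41: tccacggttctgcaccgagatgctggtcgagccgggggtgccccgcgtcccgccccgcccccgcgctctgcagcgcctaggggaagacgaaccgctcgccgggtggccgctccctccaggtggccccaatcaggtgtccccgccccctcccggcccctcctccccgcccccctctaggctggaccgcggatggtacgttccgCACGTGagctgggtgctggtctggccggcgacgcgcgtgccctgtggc
Tef: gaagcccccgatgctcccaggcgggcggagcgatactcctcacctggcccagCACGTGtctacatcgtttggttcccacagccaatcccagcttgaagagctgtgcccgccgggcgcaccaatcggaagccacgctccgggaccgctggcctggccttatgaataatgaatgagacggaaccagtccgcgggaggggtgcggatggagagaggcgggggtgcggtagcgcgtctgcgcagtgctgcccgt
The E-box begins 220 bases before the start in Bhlhe40, 48 in Bhlhe41 and 198 in Tef. It was in 3 of 15 clock promoters with a sequence (20%), in 7.89% of the promoters of genes tested and in 6.65% of all promoters. The 3 genes that carry it differed between the diets by −1.10, −0.94 and −0.42, while 11 of all 17 clock genes were lower with leucine. Nr1d1 and Dbp, with greater differences, were not among the genes with a match. Such a match describes the sequence and does not show that a factor binds there.

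**Figure D4:**
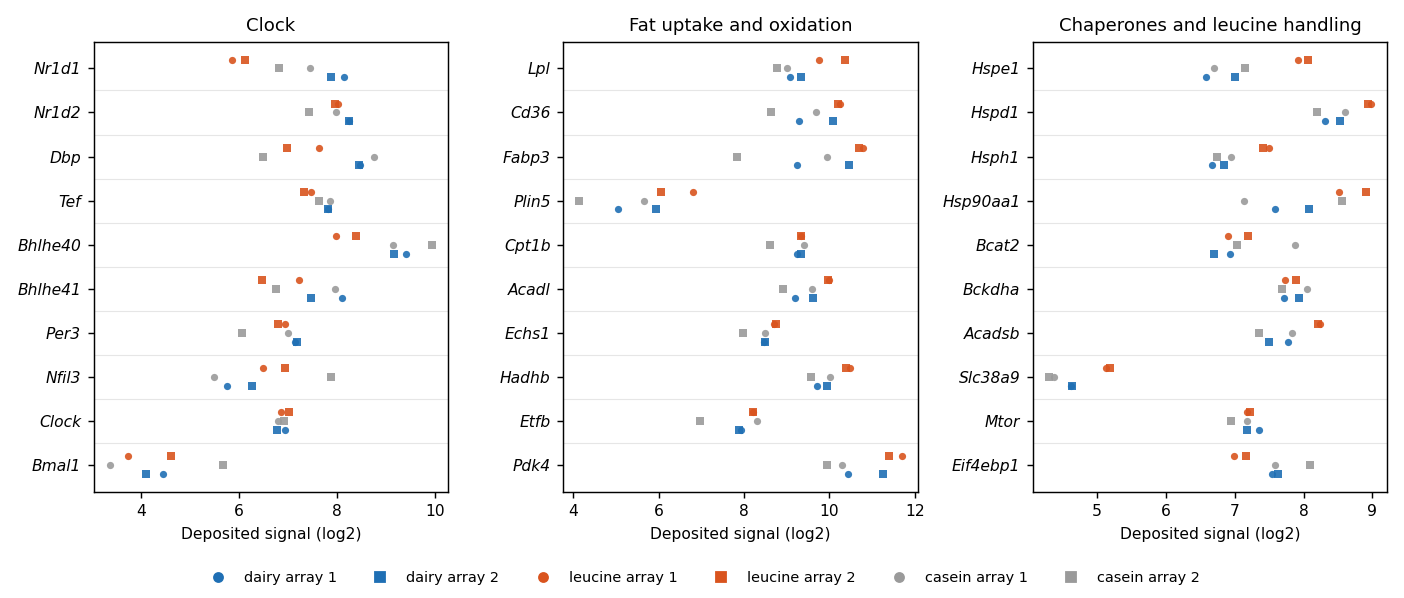
Deposited signals (log2) of single genes on each array, for clock genes, for fat uptake and oxidation and for chaperones with leucine-handling genes, with circles for array 1 and squares for array 2 of each diet. Leucine arrays (orange) lie left of the dairy arrays (blue) for Nr1d1, Dbp and Bhlhe40 and right of them for Lpl, Hadhb, Hspe1 and Slc38a9, while Cpt1b, Bckdha and Mtor overlap.

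Chaperones of the heat shock response were split. Hspe1, the mitochondrial co-chaperonin, read 6.58 and 7.00 with dairy, 7.92 and 8.07 with leucine and 6.71 and 7.15 with casein (leucine minus dairy 1.20, SE 0.19, 2.30-fold). Its partner Hspd1, the mitochondrial chaperonin, read 8.31 and 8.53 against 8.98 and 8.93 (0.54, SE 0.10). Hsph1, a cytosolic exchange factor of Hsp70, read 6.67 and 6.85 against 7.49 and 7.40 (0.69, SE 0.09). Calr, a calcium-binding chaperone of the endoplasmic reticulum, differed by −0.44 (SE 0.08). Of 26 chaperones 17 were higher, 8 of them apart, and the median of 0.13 turned to −0.07 without leucine replicate 2 and to −0.04 without dairy replicate 1.

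Hspd1 and Hspe1 stand head to head in the genome and share the stretch between them. Promoters of Hspe1 (plus strand, chr9:64084077-64084326) and Hsph1 (plus strand, chr12:10427118-10427367) are given from RefSeq in the same form, with the core of the heat shock element, GAANNTTC, in capitals.
Hspe1: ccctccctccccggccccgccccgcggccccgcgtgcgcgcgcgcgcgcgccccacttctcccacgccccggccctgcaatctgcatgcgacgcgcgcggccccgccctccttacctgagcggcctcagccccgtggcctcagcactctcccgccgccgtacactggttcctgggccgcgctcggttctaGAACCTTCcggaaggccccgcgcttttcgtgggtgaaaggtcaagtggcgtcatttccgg
Hsph1: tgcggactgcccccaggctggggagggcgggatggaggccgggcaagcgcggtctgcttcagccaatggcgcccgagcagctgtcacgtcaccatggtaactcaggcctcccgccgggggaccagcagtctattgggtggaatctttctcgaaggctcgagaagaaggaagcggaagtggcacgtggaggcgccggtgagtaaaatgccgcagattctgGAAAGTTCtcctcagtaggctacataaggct
The core lies 60 bases before the start of Hspe1 and 237 before that of Hspd1, where it is the same stretch read on the other strand, and 31 before that of Hsph1. It was in 11 of 21 chaperone promoters (52.4%), in 6.57% of the promoters of genes tested and in 8.34% of all promoters. This motif was searched after the values of the chaperones were seen. The promoters printed belong to genes named for a small p, and most other carriers of the motif are not described here. Such a match describes the sequence and does not show that a factor binds there.

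Secreted muscle factors had a list median of 0.03 and large differences in both directions. Of the 24, 4 were apart and higher and 5 apart and lower, where all genes gave 13.4% and 14.9%. Ostn, musclin, a peptide that muscle secretes, read 8.33 and 8.20 with dairy, 9.69 and 10.23 with leucine and 9.52 and 10.12 with casein (leucine minus dairy 1.70, SE 0.23, 3.25-fold). The casein arrays lay with the leucine arrays, above dairy. Igfbp6, a binding protein for insulin-like growth factor 2, read 7.44 and 7.64 with dairy and 5.61 and 4.79 with leucine (−2.34, SE 0.35), and Igfbp5, its relative, 9.73 and 9.09 against 8.49 and 7.57 (−1.38, SE 0.46). Both were chosen after their values were seen. Dcn, given above, is on this list too. Igf2 differed by 0.28 (SE 0.17) and Angptl2, an inflammatory secreted protein, by −0.77 (SE 0.10). Of the antioxidant genes Nqo2, a quinone reductase, read 5.75 and 5.74 with dairy and 6.54 and 6.64 with leucine (0.85, SE 0.05), against a list median of −0.02, and Gpx3, the secreted glutathione peroxidase, differed by −0.64 (SE 0.36). Junb and Klf4, early response factors, differed by −0.71 (SE 0.16) and −0.44 (SE 0.07), although the second cluster of Klf4 gave −0.10. Mt2A, a metallothionein, read 7.69 and 7.56 against 6.32 and 7.42, with leucine array 2 close to the dairy arrays. The early response list had 18 of 23 genes lower and 6 lower and apart, where 14.9% of all genes were lower and apart. Its median was −0.11, and −0.28 without dairy replicate 1 and also without leucine replicate 2. The glucocorticoid list had 10 of 18 lower and a median of −0.06, with the other sign without dairy replicate 1, without leucine replicate 2 and when arrays were centred.

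Ranked by unadjusted p among brighter genes that were apart and differed by at least 0.58, Cd14, Gpnmb, Tnfrsf1b, Igfbp7, Anxa2 and Nr1d1 led the lower genes. Their separation is by construction, and Cd14 and Tnfrsf1b carried the very same value on both dairy arrays. Gpnmb, a glycoprotein of lipid-laden macrophages, read 5.72 and 5.66 with dairy and 4.35 and 4.48 with leucine (−1.27, SE 0.07, unadjusted limma p 0.000363). Anxa2, a membrane-binding annexin, read 7.54 and 7.46 against 6.22 and 6.40 (−1.19, SE 0.09), and Sncg, a synuclein of nerve and fat, 6.48 and 6.39 against 5.24 and 5.03 (−1.30, SE 0.10). Tnfrsf1b, a receptor of tumour necrosis factor, differed by −0.62 (SE 0.04) and the death receptor Tnfrsf21 by −0.72 (SE 0.06). Igfbp7, a vascular binding protein, differed by −0.60 (SE 0.04), and the lysosomal protease Ctsh by −0.63 (SE 0.06). Ly6c, a surface antigen of monocytes and vessels, differed by −0.95 (SE 0.09), Pcsk6, a proprotein convertase, by −0.60 (SE 0.06) and Ccdc86 by −0.60 (SE 0.05).

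Higher genes by the same ranking included several of mitochondria. Aifm1, an oxidoreductase of the mitochondrial intermembrane space, read 7.00 and 7.15 with dairy and 7.73 and 7.75 with leucine (0.67, SE 0.07). Bola3, needed for iron-sulphur clusters, read 7.12 and 7.31 against 7.85 and 7.88 (0.65, SE 0.09), and Fundc1, a receptor for removal of mitochondria, 6.40 and 6.40 against 7.21 and 6.98 (0.69, SE 0.10). Akr1b10, an aldo-keto reductase, read 6.29 and 5.95 against 7.34 and 7.42 (1.26, SE 0.15). Rdh14, a retinol dehydrogenase, differed by 1.01 (SE 0.16), the potassium channel Kcnma1 by 0.62 (SE 0.08) and Kremen1, a receptor of the Wnt inhibitor Dickkopf, by 0.60 (SE 0.09). The rest of the 12, Nqo2, Hsph1, Ostn, Ldhb and Hspe1, are described above. In Kcnma1, Kremen1 and Bola3 both casein arrays lay below both dairy arrays, while Akr1b10 on casein (6.99 and 6.78) lay between the diets.

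**Figure D5:**
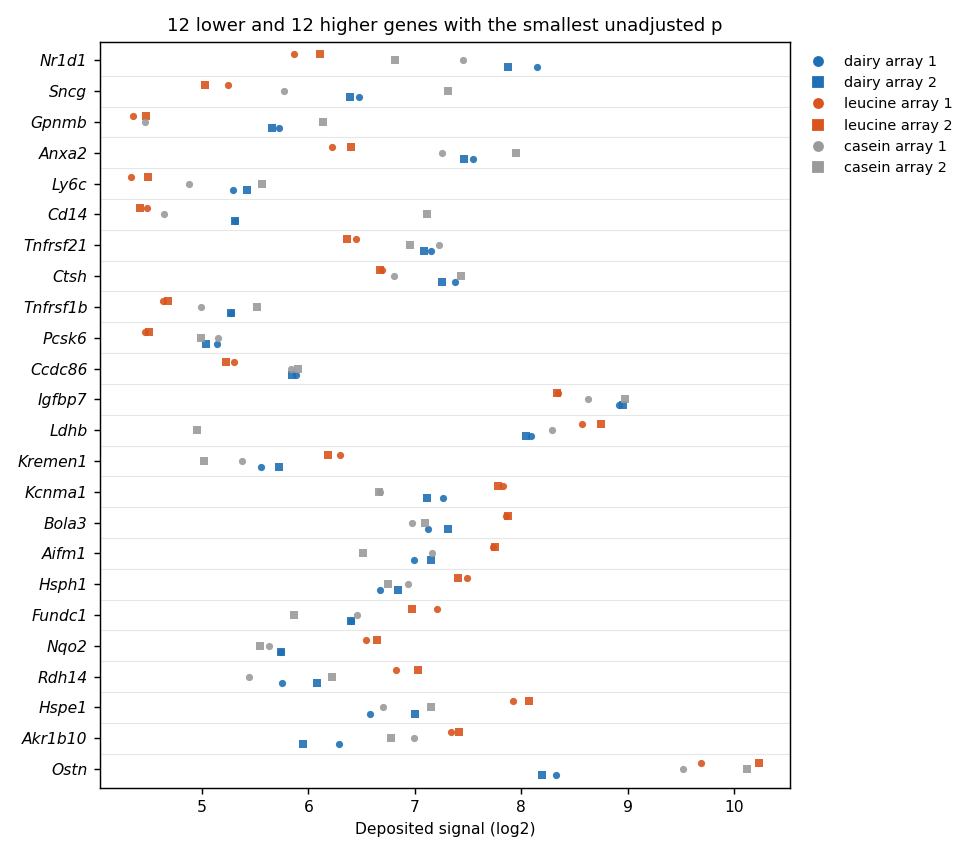
Deposited signals (log2) on each array of the 12 lower and 12 higher genes with the smallest unadjusted p among brighter genes whose leucine and dairy arrays do not overlap, ordered by difference. The gap between leucine (orange) and dairy (blue) is by construction, and the casein arrays (grey) lie with dairy in some genes and with leucine in Ostn.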

How the data were processed

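RNA of gastrocnemius was hybridised to Affymetrix Rat Gene 1.0 ST arrays, which carry several probes along each gene. The authors deposited log2 signals, for which the submitters' processing notes name Affymetrix Expression Console. Its version, background correction and normalization are not given in the sources used here. Arrays carry no read depth, and 2 arrays per diet limit the precision. Of 29214 transcript clusters 15310 had 1 gene in the platform annotation, and a gene with several clusters (527 genes) was read from its brightest cluster by mean over all 6 arrays, giving 14506 genes. Leucine was compared with dairy by limma 3.58.1 in R 4.3.3 on those 4 arrays (2 residual degrees of freedom, two-sided, Benjamini-Hochberg adjustment over all genes). On simulated arrays with 200 changed genes, the same step recovered 68.5% of 2-fold and 92.4% of 4-fold changes, with 6.6 false calls per run. On the deposited arrays no gene was called, and Nr1d1, 4.06-fold lower with leucine, had an adjusted p of 0.512 in limma. The simulated arrays had independent normal noise in each gene, without the equal values between arrays of a diet seen in the deposited ones. The recovered shares therefore do not measure what could be found on the deposited arrays.

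Genes were named by rule. Since none passed the adjusted threshold, these were the 12 higher and 12 lower with the smallest p among genes at or above the median level of 4.12, with arrays apart and a difference of at least 0.58. To them were added up to 3 members per list by p in the direction of its median and 1 in the other, and 28 genes fixed by name (27 measured). Alb, Col1a2, Fn1, Plod2, Fmod, C1qb, Csf1r, Ptprc, Pecam1, Cdh5, Kdr, Mbp, Fgg, Sln, Bhlhe40, Bhlhe41, Clock, Bmal1, Igfbp5, Igfbp6 and those under other observations were chosen after their values were seen. The comparison, the 53 gene lists (1057 of 1195 symbols measured) and the fixed genes were chosen with earlier results of these data known, so lists carry no test. Same-numbered arrays of leucine and dairy had deviations correlated at 0.05, and their numbers were not taken as pairs. Promoters were RefSeq's.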

Additional observations from a re-analysis of the deposited data

How the results depend on the processing

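No gene passed an adjusted p of 0.05 in limma under any of 12 alternatives, whose lowest adjusted p ran from 0.179 to 0.671. The fit with casein array 1 alone added adds no residual degree of freedom, so it repeats the 1095 genes and the 0.512 by construction. Where an array is left out, the lone array of its diet is assumed to vary like the other diet's pair. The 1095 genes with an unadjusted p under 0.05 became 640 among genes at or above the median level, where fewer were tested, and 1675 to 2354 with 1 array left out. Leaving out 1 array took the 92 genes over 2-fold and apart to between 88 and 225. With the replicate number as a term (replicate block), 1061 genes had an unadjusted p under 0.05 and none passed adjustment. Of the 53 list medians, 35 kept their sign under every setting tried for them and 18 did not. Of 2228 values of 187 named genes under alternatives, 39 had the other sign, in 25 genes. After quantile normalization these differences were 0.017 for Cdh5, 0.091 for Myh4, 0.039 for Myl1, 0.024 for Ptprc and 0.017 for Tnnt3. With arrays centred they were 0.047 for Bckdha, 0.039 for Cdh5, 0.024 for Mbp, 0.035 for Ptprc and 0.0040 for Slc2a4. With 1 array left out the differences ran from −2.01 to 2.97 for Alb, −0.13 to 0.089 for Bckdha, −0.46 to 0.16 for Bckdk, −0.54 to 0.32 for Bmal1, −0.10 to 0.048 for Cdh5 and −0.099 to 0.28 for Col8a1. They ran from −0.18 to 0.011 for Cpt1a, −0.0080 to 0.080 for Cpt1b, −0.24 to 0.068 for Cs, −0.46 to 3.07 for Fgg, −0.66 to 0.34 for Irs1 and −0.26 to 0.076 for Kdr. The same range was −0.16 to 0.018 for Mtor, −0.33 to 0.052 for Myh4, −0.030 to 0.22 for Myh7, −0.059 to 0.60 for Ppargc1a, −0.24 to 0.18 for Ptprc and −0.057 to 0.32 for RT1-Bb. For the others it was −2.16 to 0.71 for Scd, −0.046 to 0.18 for Sesn1, −0.16 to 0.038 for Slc2a4 and −0.38 to 0.14 for Trim63. The cause of these changes was not tested.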

Other observations

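Of the 92 genes over 2-fold and apart, 27 were on a gene list, and those named here lie outside the naming rule and were chosen after their values were seen. Igfbp6 had the greatest difference of the 92, and its casein arrays, at 7.25 and 7.40, lay close to the dairy arrays. Several secreted connective tissue proteins outside the lists lay in the same range. Fndc1, a fibronectin-like matrix protein, read 7.43 and 6.95 against 5.23 and 5.13 (−2.01, SE 0.20). Prelp, a leucine-rich proteoglycan, read 7.26 and 7.81 against 5.49 and 5.60 (−1.99, SE 0.23), and Cilp, a matrix protein first described in cartilage, 6.05 and 6.27 against 3.95 and 4.68 (−1.84, SE 0.32). Aebp1, a collagen-binding protein, and Serpinf1, a secreted serpin, differed by −1.80 (SE 0.41) and −1.69 (SE 0.46), and in both dairy array 1 was the highest of the 6 arrays. The complement proteases C1r and C1s and their inhibitor Serping1 differed by −1.21 (SE 0.25), −1.02 (SE 0.32) and −1.06 (SE 0.32). Rbm3, an RNA-binding protein that cold switches on, read 8.58 and 7.90 against 7.05 and 6.38 (−1.52, SE 0.40).

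Among the 17 higher genes, Amy1, amylase, read 3.28 and 3.28 with dairy, 4.58 and 5.87 with leucine and 2.92 and 2.90 with casein (leucine minus dairy 1.94, SE 0.53). Actc1, the cardiac actin that growing and regenerating muscle also makes, read 7.52 and 8.31 with dairy, 9.19 and 9.59 with leucine and 7.00 and 6.35 with casein, so that its leucine arrays were the highest of the 6. H19, a long non-coding RNA of the imprinted Igf2 region, read 9.44 and 11.19 against 11.87 and 11.71, and Mybph, a myosin-binding protein, 7.51 and 8.90 against 9.69 and 9.57. In both of these dairy array 1 lay well below dairy array 2. Of the 13581 clusters with no gene entry, 181 were over 2-fold and apart (61 higher, 120 lower), a share of 1.33% against 0.634% of named genes.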
